A study of Mus musculus with 15 samples.

Results

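The 36 genes followed here are the synaptic and neuronal genes of a mouse glioma series. They were chosen by name, with earlier results of these data known, out of 24650 genes on which a transcript was listed in some library. They were Snap25, Syt1, Syp, Syn1, Syn2, Stx1a, Vamp2, Camk2a, Camk2b, Slc17a7, Slc17a6, Slc32a1, Gad1, Gad2, Sst, Npy, Gria1, Gria2, Grin1, Grin2a, Grin2b, Gabrb2, Dlg4, Shank1, Nrgn, Stmn2, Stmn3, Hpca, Ddn, Sult4a1, Tubb3, Rbfox3, Map2, Gap43, Kcna1 and Scn1a. RNA sequencing covered 15 libraries from C57BL/6 mice, 3 in each of 5 groups. The tumor groups carried GL261 and received 0 (untreated), 50, 100 or 200 µg of B20.4.1.1, an antibody to VEGF-A, at each dose. Healthy brain made the last group. GL261 is a mouse glioma line that grows in C57BL/6 hosts. Dosing ran every 3 days from day 10 after implantation to the endpoint, and tumors were taken after perfusion with PBS, frozen on dry ice and extracted with Trizol. The labels do not say how a tumor was separated from the brain around it or which part of the healthy brain was taken.

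Chemical synapses pass a signal when a vesicle filled with transmitter fuses with the presynaptic membrane and receptors on the other side open. The fusion machinery, the transmitter transporters and synthetic enzymes, the receptors and the scaffold beneath them are made almost exclusively by neurons in the brain, and glioma cells make little of most of them. Some genes used as neuronal markers, such as those for cytoskeletal proteins, are also active in other cells. The level left in a tumor library was therefore read as a percent of the mean of the 3 healthy brain libraries. In bulk tissue, fewer cells of a type and less RNA per cell cannot be told apart.

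Levels are given as FPKM, which scales fragments by transcript length and by the fragments mapped in a library, summed over the assembled transcripts on a gene's exons and weighted by the share of the exonic length that each covered. Estimated depth was 19.4 to 35.7 M fragments in the tumor libraries and 16.9 to 60.1 M in healthy brain. Genes listed in several pieces made up 7.15 to 8.75% of genes in 4 tumor libraries, the 3 at 200 µg and replicate 3 at 100 µg, and 15.7 to 31.9% in the other 8. Replicate 3 at 50 µg had the highest share. The agent tag disagreed with the title for replicate 3 of all 4 tumor groups, and titles set the groups. By that tag, replicate 3 received 50 µg in the untreated group, 100 µg in the 50 µg group and 200 µg in the 100 µg group, and in the 200 µg group it carried no dose. The labels call the samples of a group individual samples and say no more, so a p-value here reflects only how far these samples spread, which may be technical.

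Sequences are shown for Tubb3, whose transcript structure differed between libraries, and for promoters that hold the motifs searched. The first is the junction between exon 3 and exon 4, the last exon, of Tubb3 (mm10, plus strand, chr8:123419021-123419050 joined to chr8:123420607-123420636), with the last exon in capitals. This junction was joined in every healthy brain library and in only 3 tumor libraries.
Tubb3 junction: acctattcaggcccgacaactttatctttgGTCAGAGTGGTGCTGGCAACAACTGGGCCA
The next are promoters from RefSeq (GRCm38.p6), each running from 250 bases before to 50 bases after a start site. All motifs were searched on both strands, none overlap in the windows shown, and capitals mark exact matches to the left and right blocks of RE1 (CAGCACC and GGACAG), the element bound by the repressor REST, or to the cAMP response element (TGACGTCA).
Tubb3 promoter, chr8:123411303-123411602, plus strand: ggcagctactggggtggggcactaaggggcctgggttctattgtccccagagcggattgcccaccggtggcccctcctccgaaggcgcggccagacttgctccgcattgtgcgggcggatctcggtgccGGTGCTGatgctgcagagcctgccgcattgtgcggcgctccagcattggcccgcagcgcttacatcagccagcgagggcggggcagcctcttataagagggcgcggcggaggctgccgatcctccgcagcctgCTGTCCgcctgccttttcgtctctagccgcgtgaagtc
Syn1 promoter, chrX:20920869-20921168, minus strand: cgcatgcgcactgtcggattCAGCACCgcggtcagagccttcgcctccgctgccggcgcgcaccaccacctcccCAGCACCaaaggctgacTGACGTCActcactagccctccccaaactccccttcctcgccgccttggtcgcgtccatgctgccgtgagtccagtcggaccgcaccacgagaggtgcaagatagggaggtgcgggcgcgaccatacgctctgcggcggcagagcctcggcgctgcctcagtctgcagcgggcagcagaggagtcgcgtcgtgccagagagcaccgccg
Sst promoter, chr16:23890795-23891094, minus strand: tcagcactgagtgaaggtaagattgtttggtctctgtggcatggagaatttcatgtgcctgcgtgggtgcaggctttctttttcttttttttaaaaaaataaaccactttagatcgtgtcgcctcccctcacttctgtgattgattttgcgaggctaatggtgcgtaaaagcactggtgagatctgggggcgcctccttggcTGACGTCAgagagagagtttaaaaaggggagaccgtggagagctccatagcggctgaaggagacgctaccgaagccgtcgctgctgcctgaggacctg

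Promoters were at hand for 24 of the 36 genes, 33 windows in all. Snap25, Camk2a, Ddn, Gria1, Vamp2, Grin2b, Shank1, Kcna1, Gap43, Sult4a1, Grin2a and Stmn2 had none. The left block lay in 3 of the 33 windows (Dlg4, Syn1 and Tubb3) and in 7.14% of the 32851 promoters of all genes. The right block lay in 12 of the 33 and in 22.2% of all promoters. Both blocks joined with a gap of 2 bases (CAGCACCNNGGACAG) lay in none of the 33 windows and in 12 of all promoters. The cAMP response element, searched for after the values were seen, lay in the windows of Sst and Syn1 and in 1.79% of all. Member windows had a median GC content of 60.0%, against 52.7% over all promoters.

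All 36 genes were lower in untreated tumor than in healthy brain, and no library of untreated tumor reached the lowest healthy brain library for any of them, a rule that 31.4% of all genes tested met. By limma on log2(FPKM + 1), adjusted by Benjamini-Hochberg over 16340 genes, all 36 were called lower, where 28.0% of all genes were called lower, 32.7% higher and 60.7% in either direction. The 36 log2 fold changes had a median of -5.45, against 0.14 over all genes tested, and ran from -7.41 for Snap25 to -1.87 for Tubb3. Every one of the 36 passed the filter on low values, 1 FPKM or more on average across the 6 libraries. Of these, 10 would have passed on their tumor values alone and 26 passed only through healthy brain, so the count of 36 follows in part from the filter. The log2 scale with 1 FPKM added understates the change of genes that are low in either tissue, and the order of the genes depends on the value added. With 0.1 FPKM added and no filter the largest change was that of Npy (-10.1). Those of Sst (-9.26), Sult4a1 (-8.79), Stmn3 (-8.74), Gria1, Rbfox3, Gabrb2, Ddn, Gad1, Gad2 and Camk2a were also larger than that of Snap25 (-7.73). In untreated tumor 29 of the 36 genes averaged below 2% of the brain level and 7 averaged more.

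**Figure D1:**
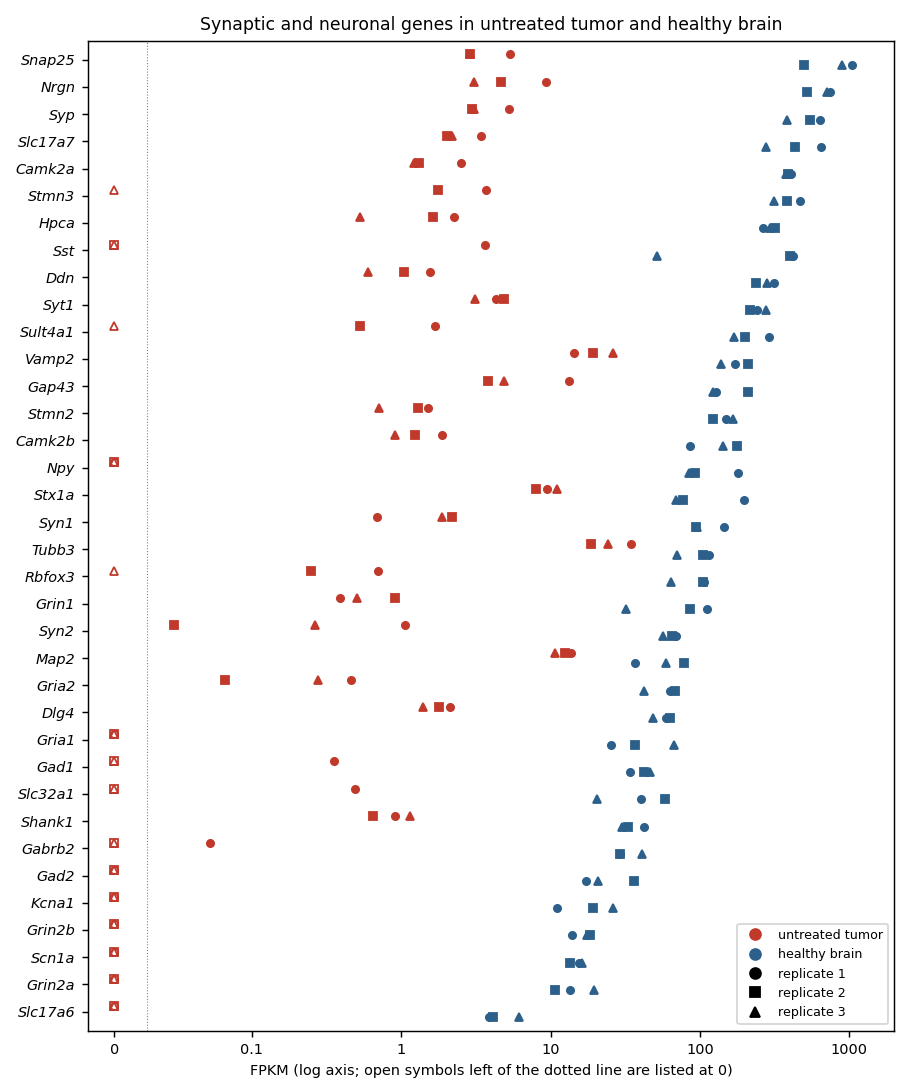
FPKM on a log axis for the 36 genes in the 3 untreated tumor libraries (red) and the 3 healthy brain libraries (blue), with a symbol for each replicate and open symbols for values listed at 0. In each row all red symbols lie left of all blue symbols, with the narrowest gaps for Tubb3 and Map2 and 8 genes listed at 0 in all 3 untreated libraries.

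Among genes of vesicle fusion, Snap25, a SNARE protein of the presynaptic membrane, was the most abundant of the 36 in brain. It was listed at 5.34, 2.90 and 2.89 FPKM in untreated tumors, against 1040, 498 and 898 FPKM in healthy brain. The tumor values rest on an estimated 233, 132 and 125 fragments. Replicate 1 was the highest of the untreated tumors, and the groups were far apart (log2 fold change -7.41, SE 0.35, limma adjusted p = 1.79e-05). Syp, an abundant membrane protein of synaptic vesicles, had 5.27, 2.99 and 3.06 FPKM in untreated tumors, against 633, 545 and 381 FPKM in healthy brain. Replicate 1 of the untreated tumors was again the highest (log2 fold change -6.77, SE 0.28). Syt1, the calcium sensor of fast release, had 4.29, 4.87 and 3.13 FPKM in untreated tumors and 241, 216 and 277 FPKM in healthy brain. Its residual level, 1.75, 1.99 and 1.28% of brain, was above that of Snap25 in each of the 3 tumors, at 0.658, 0.357 and 0.355%.

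Vamp2, the SNARE protein of the vesicle, and Stx1a, its partner in the presynaptic membrane, kept more. Vamp2 was listed at 14.4, 19.3 and 26.0 FPKM in untreated tumors, against 172, 210 and 138 FPKM in healthy brain. Its lowest residual level, in replicate 1, was 8.33% of brain. Stx1a had 9.42, 8.03 and 10.96 FPKM in untreated tumors, against 198, 76.9 and 69.0 FPKM in healthy brain. Both genes still differed between the groups without overlap (log2 fold change -3.08, SE 0.27 for Vamp2 and -3.30, SE 0.42 for Stx1a, adjusted p = 1.45e-04 and 7.03e-04 by limma).

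The synapsins tether vesicles to each other and to the cytoskeleton. Syn2 was listed at 1.07, 0.0302 and 0.265 FPKM in untreated tumors, against 69.5, 65.3 and 56.2 FPKM in healthy brain. Syn1 had 0.687, 2.18 and 1.88 FPKM in untreated tumors, against 145, 94.4 and 95.4 FPKM in healthy brain. In 8 tumor libraries and all 3 brain libraries transcripts on Syn1 exons also carried introns of the overlapping gene Araf, a kinase gene of many cell types, so the Syn1 values are uncertain. They ranged from 0.295 to 21.3 FPKM over the 12 tumors.

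Genes that mark the transmitter of a neuron were low throughout. Slc17a7, the vesicular glutamate transporter of cortex and hippocampus, had 3.40, 2.02 and 2.18 FPKM in untreated tumors, against 645, 432 and 275 FPKM in healthy brain (log2 fold change -6.93, SE 0.34, limma adjusted p = 2.02e-05). The groups lay far apart, although the brain libraries themselves differed, with replicate 3 the lowest. Slc17a6, the transporter of thalamic and brainstem neurons, was the lowest of the 36 in brain, at 3.87, 4.12 and 6.10 FPKM, and was listed at 0 in all 12 tumor libraries.

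The genes of inhibitory neurons were at or near 0 in most tumors. Gad1 and Gad2 encode the 2 enzymes that make GABA. Gad1 was listed at 0.358, 0 and 0 FPKM in untreated tumors, against 34.2, 42.1 and 46.2 FPKM in healthy brain. Gad2 was at 0 in all 3 untreated tumors, against 17.2, 36.1 and 20.8 FPKM in healthy brain. Slc32a1, which loads GABA into vesicles, was above 0 in only 1 of the 3, replicate 1, at 0.488 FPKM, against 40.0, 58.3 and 20.4 FPKM in healthy brain. A non-coding gene, Gm14205, overlaps 24.9% of its exonic length and cannot be told apart from it there.

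The neuropeptides of interneurons were also at 0 in most tumors. Sst, which encodes somatostatin, was listed at 3.65, 0 and 0 FPKM in untreated tumors, against 421, 399 and 51.6 FPKM in healthy brain. Its brain level was the least even of the 36, with replicate 3 lowest. Over all 12 tumors Sst was above 0 in 4, among them replicates 1 and 2 at 100 µg with 2.49 and 3.18 FPKM. Npy, neuropeptide Y, was above 0 in a single tumor library, replicate 2 at 100 µg, at 2.19 FPKM, against 180, 92.7 and 84.0 FPKM in healthy brain.

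Receptor genes stayed below 1 FPKM in every untreated tumor. Of the AMPA receptor subunits, which carry fast glutamate currents, Gria2 was listed at 0.459, 0.0666 and 0.278 FPKM in untreated tumors, against 63.3, 67.8 and 42.4 FPKM in healthy brain. Gria1 was at 0 in all 3 untreated tumors, against 25.3, 36.6 and 66.7 FPKM in healthy brain. Grin1, the subunit shared by NMDA receptors, had 0.389, 0.909 and 0.510 FPKM in untreated tumors, against 112, 85.4 and 32.2 FPKM in healthy brain. Its antisense gene Grin1os overlaps 29.9% of its exonic length.

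The other receptor subunits and the channels were nearly absent from the tumor lists. Grin2a, an NMDA receptor subunit of mature neurons, was at 0 in all 12 tumors, and Grin2b, its counterpart that comes earlier in development, was above 0 in only 2, at 0.0277 and 0.0195 FPKM. Gabrb2, a subunit of the GABA-A receptor, was above 0 in 1 tumor library at 0.0525 FPKM. Kcna1, a voltage-gated potassium channel of axons, was at 0 in all 12, and Scn1a, a voltage-gated sodium channel, was above 0 in 1 at 0.0718 FPKM. In healthy brain these 5 genes had 10.7 to 41.1 FPKM in each library. The fewest fragments behind a listed single-exon transcript were estimated at 4.14 to 6.36 by library, so a gene at 0 is not shown to be absent.

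Genes of the postsynaptic density and of calcium signaling in spines differed among themselves. Camk2a, the calcium-dependent kinase of excitatory synapses, was listed at 2.53, 1.31 and 1.22 FPKM in untreated tumors, against 404, 386 and 374 FPKM in healthy brain. The brain libraries agreed closely, and 0.314 to 0.653% was left (log2 fold change -7.21, SE 0.22, limma adjusted p = 1.02e-05). Camk2b, the other main neuronal subunit of that kinase, had 1.89, 1.23 and 0.905 FPKM in untreated tumors, against 86.4, 176 and 142 FPKM in healthy brain. Nrgn, which binds calmodulin in dendritic spines, had 9.35, 4.68 and 3.08 FPKM in untreated tumors, against 736, 522 and 710 FPKM in healthy brain. For each of these 3 genes replicate 1 was the highest of the untreated tumors and replicate 3 the lowest.

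Ddn, a dendrite protein, was listed at 1.57, 1.04 and 0.602 FPKM in untreated tumors and at 236 to 315 FPKM in healthy brain. Hpca, a calcium sensor of hippocampal neurons, had 2.26, 1.63 and 0.530 FPKM in untreated tumors and 262 to 317 FPKM in healthy brain. The order of the 3 tumors was the same in both. Dlg4, the scaffold protein PSD-95, stood higher in relative terms, with 2.13, 1.80 and 1.39 FPKM in untreated tumors, against 59.0, 63.1 and 48.6 FPKM in healthy brain, or 2.44 to 3.74% of brain. Shank1, a scaffold below it, had 0.907, 0.645 and 1.15 FPKM in untreated tumors and 30.1 to 42.4 FPKM in healthy brain, with few of its introns joined in tumors.

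Cytoskeletal and identity genes covered the whole range. Stmn2 and Stmn3 are stathmins, regulators of microtubules in neurons. Stmn2 was listed at 1.52, 1.30 and 0.711 FPKM in untreated tumors, against 149, 123 and 165 FPKM in healthy brain, and Stmn3 at 3.68, 1.77 and 0 FPKM, against 464, 384 and 313 FPKM. Sult4a1, a brain sulfotransferase, had 1.68, 0.532 and 0 FPKM in untreated tumors, against 289, 201 and 168 FPKM in healthy brain. Rbfox3, the splicing factor known as the nuclear marker NeuN, had 0.702, 0.250 and 0 FPKM in untreated tumors, against 106, 105 and 63.6 FPKM in healthy brain. In all 4, untreated replicate 1 was the highest and replicate 3 the lowest.

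Gap43, a protein of growing axons, was listed at 13.3, 3.81 and 4.91 FPKM in untreated tumors, against 128, 209 and 123 FPKM in healthy brain. Map2, a microtubule protein of dendrites, had 13.6, 12.5 and 10.8 FPKM in untreated tumors, against 36.6, 78.1 and 59.1 FPKM in healthy brain. That left 18.6 to 23.5% of the brain level, and the groups still did not overlap (log2 fold change -2.09, SE 0.29, limma adjusted p = 0.00113).

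Tubb3, the beta tubulin used as a marker of neurons, kept the most. It was listed at 34.7, 18.8 and 24.2 FPKM in untreated tumors, against 114, 105 and 70.3 FPKM in healthy brain, which is 19.4 to 35.9% of brain (log2 fold change -1.87, SE 0.29, limma adjusted p = 0.00185). The call was lost when the FPKM of transcripts with a matching intron was summed without weighting by length, as was that of Grin1. The changes were then -3.47 (SE 1.38, limma adjusted p = 0.0930) for Tubb3 and -3.00 (SE 1.66, limma adjusted p = 0.195) for Grin1, larger but with a wider error. No window of 50 bases of its transcripts occurred in a transcript of another gene.

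The form of the Tubb3 transcripts also differed between libraries. In healthy brain each library listed transcripts of 4 exons. Such transcripts were listed in only 3 of the 12 tumor libraries, untreated replicates 1 and 3 and replicate 3 at 100 µg. The other 9 listed unspliced transcripts over the last exon, which is 1409 of 1868 exonic bases. In all 3 tumors at 200 µg these covered 95.3 to 99.6% of the last exon, and in replicates 2 and 3 they began at its first annotated base or within 2 bases of it. In untreated replicate 2 a transcript began 350 bases upstream, inside the intron. Transcripts also began inside the intron in replicate 2 at 50 µg and replicate 1 at 100 µg. In replicate 3 at 50 µg a transcript began at the base just before the last exon, so neither start was confined to a single dose.

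Splicing gave a second readout, which the FPKM rule did not use. An annotated intron was joined in all 3 healthy brain libraries for 35 of the 36 genes, Grin1 being the exception. In tumors, 8 genes had a joined intron in all 12 libraries, namely Syt1, Stx1a, Vamp2, Camk2b, Dlg4, Nrgn, Map2 and Gap43. For 6 genes, Slc17a6, Grin2a, Grin2b, Gabrb2, Kcna1 and Scn1a, no tumor library had one. Nrgn had all 3 of its introns in each of the 15 libraries. Syp had all 6 in 11 of the 12 tumor libraries and none in replicate 3 at 50 µg. No spliced Tubb3 transcript was listed at 200 µg.

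**Figure D2:**
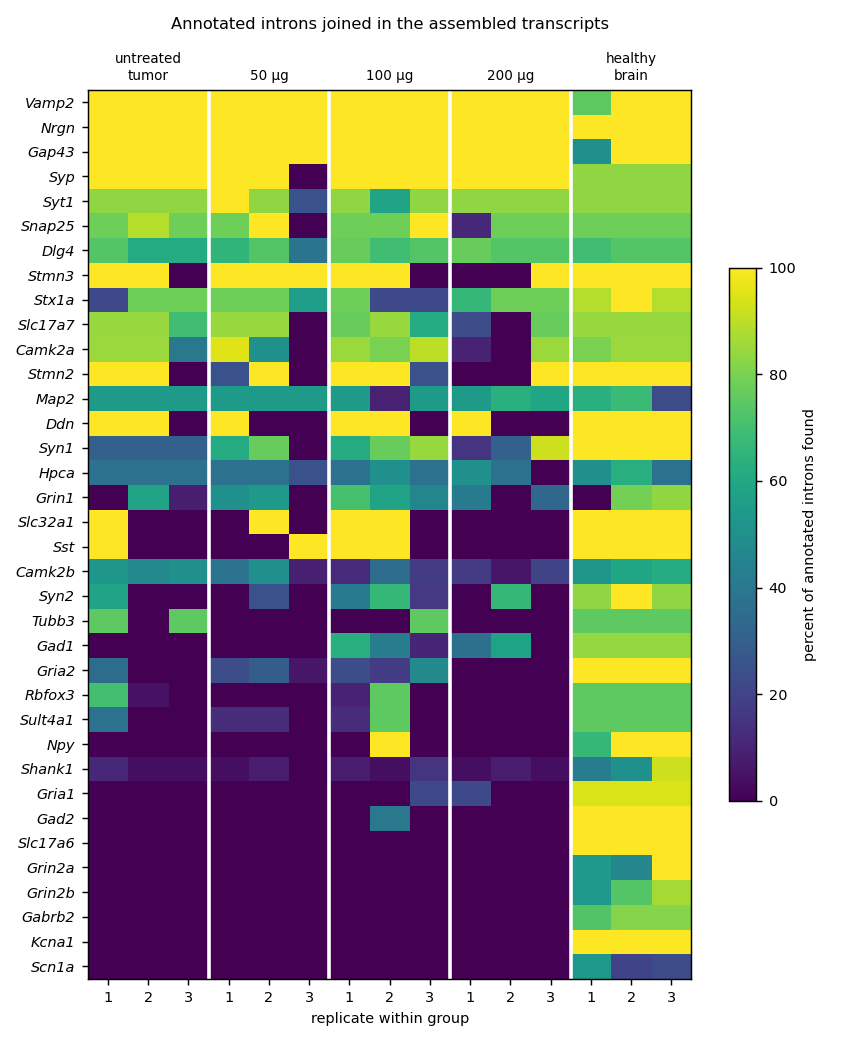
Percent of a gene's annotated introns that were joined in the assembled transcripts of each library, for the 36 genes (rows, ordered by the mean over tumors) and the 15 libraries (columns, tumor groups by dose and then healthy brain). Vamp2, Nrgn and Gap43 are at 100% in every tumor library, the 6 lowest rows include the genes at 0% in all 12, and Tubb3 is above 0% in 3 tumors.

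Sequence shared with other genes was counted over windows of 50 bases. Syp had 16.1% of windows in common with the overlapping gene Gm14703 and Slc32a1 23.7% with Gm14205, and these values are uncertain for that reason. Gm14703 overlaps 33.8% of the exonic length of Syp and cannot be told apart from it there. Grin2a had 11.6% in common, almost all with Gm7328, and was at 0 in every tumor.

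Genes with related functions that are not among the 36 were also lower in untreated tumor. Of 18 other genes of vesicle release, all 18 fell, with a median log2 fold change of -4.62. Cplx1, a regulator of fusion, was listed at 1.71, 1.08 and 1.28 FPKM in untreated tumors, against 270, 234 and 233 FPKM in healthy brain. Syngr3, a vesicle protein, kept more, with 6.997, 13.1 and 9.25 FPKM in untreated tumors, against 88.8, 77.7 and 57.1 FPKM in healthy brain. Of 15 other genes of receptors and the postsynaptic density, 14 fell, with a median of -4.22. Ppp3ca, the catalytic subunit of calcineurin, kept 24.8% of its brain level. Bcr did not pass (log2 fold change -1.07, SE 0.39, limma adjusted p = 0.0529). The share of all genes called lower in this comparison was 28.0%, and the median over all genes was 0.14.

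All 15 other genes of the neuronal cytoskeleton and identity fell, with a median log2 fold change of -5.15. Uchl1, a neuronal deubiquitinase, fell the least of these, to 72.0, 99.1 and 144 FPKM in untreated tumors, against 217, 251 and 252 FPKM in healthy brain. All 11 other ion channel genes fell (median -4.41), as did all 10 other interneuron and peptide genes (median -4.49), such as Cck, with 1.59, 1.17 and 0 FPKM in untreated tumors, against 310, 166 and 49.2 FPKM in healthy brain.

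Genes of the REST complex, which represses neuronal genes in cells other than neurons, were read beside the promoters shown above. Of 8 genes, 7 rose in untreated tumor and none fell, with a median log2 fold change of 1.16, and 32.7% of all genes rose. Rcor2, a corepressor, had 50.7, 56.3 and 30.2 FPKM in untreated tumors, against 5.30, 4.87 and 3.43 FPKM in healthy brain. Rest itself, named after its values were seen, had 6.57, 10.03 and 11.4 FPKM in untreated tumors, against 0.752, 0.194 and 0.733 FPKM in healthy brain (log2 fold change 2.72, SE 0.26, limma adjusted p = 2.18e-04). Whether these levels bear on the 36 genes was not tested.

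The residual level was then followed across dose. Its median over the 36 genes was 0.785, 0.365 and 0.335% of brain in the untreated tumors, 0.359, 0.525 and 0.288% in the 50 µg group, 0.628, 1.09 and 0.222% in the 100 µg group and 0.155, 0.0147 and 0.134% in the 200 µg group. The 3 libraries at 200 µg were the lowest of the 12, and replicate 3 at 100 µg came next. These are the same 4 libraries that listed few genes in pieces, so dose and this difference between libraries can be told apart only through replicate 3 at 100 µg, whose agent tag reads 200 µg. The untreated, 50 µg and 100 µg groups overlapped. Over all genes with at least 1 FPKM in brain the median lay between 73.3 and 88.4% in every tumor library.

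The number of members listed at 0 was 8, 12 and 15 of 36 in the untreated tumors, 13, 10 and 16 in the 50 µg group, 7, 5 and 13 in the 100 µg group and 15, 18 and 15 in the 200 µg group. Replicate 2 at 200 µg had the most although it was the deepest tumor library, at 35.7 M fragments. In healthy brain no member was at 0.

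Over the members above 0 in some tumor, 33 in all, 13 had their highest tumor value in untreated replicate 1 and 13 in replicate 2 at 100 µg. Among the 14653 genes tested in tumors, 8.26% and 6.18% were highest in those libraries. Of the 3 libraries at 200 µg, replicate 2 was the highest for 1 member, and the other two for none. These 2 high libraries were at different doses.

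**Figure D3:**
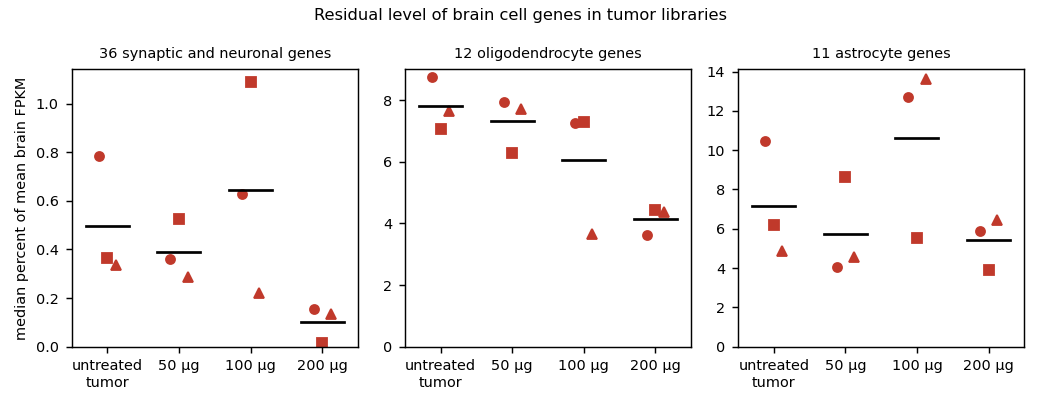
Median percent of the mean healthy brain FPKM in each of the 12 tumor libraries, by dose, for the 36 synaptic and neuronal genes, 12 oligodendrocyte genes and 11 astrocyte genes. Symbols are replicates 1 to 3 and lines are group means. The 3 libraries at 200 µg are the lowest for the neuronal genes, and replicate 3 at 100 µg lies beside them for the neuronal and oligodendrocyte genes.

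Tests between doses used limma on the 12 tumor libraries, in which 17 of the 36 genes reached 1 FPKM on average. Comparisons of groups shared a model, and the linear trend over dose was fitted separately. At 200 µg against untreated tumor, 1 of the 17, Tubb3, was called, lower at 200 µg, and none was called higher, while 6 of the 17 and 23.0% of all genes had an unadjusted p under 0.05. Of all 14653 genes 2.83% were called, 0.798% lower and 2.03% higher. The 17 had a median log2 change of -0.74, against 0.04 over all genes tested, and 12 of them were negative. By the linear trend over dose 1 of the 17, again Tubb3, was called, where 7.53% of all genes were called, 2.43% lower and 5.10% higher, and 6 of the 17 and 26.5% of all genes had an unadjusted p under 0.05. At 50 µg 0 of the 17 and 0% of all genes were called, and 1 of the 17 and 4.01% of all genes had an unadjusted p under 0.05. At 100 µg 0 were called and 1 had an unadjusted p under 0.05, as did 8.96% of all genes, with 0.0887% of all genes called, 0.0136% lower and 0.0751% higher. For the 3 doses together against untreated tumor the counts were 0 called and 5 at an unadjusted p under 0.05, as were 12.1% of all genes, with 0.0751% of all genes called, 0.0136% lower and 0.0614% higher.

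Tubb3 was listed at 34.7, 18.8 and 24.2 FPKM in untreated tumors, 22.2, 17.3 and 11.4 in the 50 µg group, 16.7, 19.8 and 11.2 in the 100 µg group and 7.99, 7.26 and 6.15 in the 200 µg group. The 3 libraries at 200 µg lay below the other 9. The log2 change at 200 µg was -1.69 (SE 0.30, limma adjusted p = 0.0226), and the trend was -0.81 per 100 µg (SE 0.14, limma adjusted p = 0.00995). With a term for the 4 libraries that have few genes in pieces, which hold every 200 µg library, the change at 200 µg was -1.04 (limma adjusted p = 0.474), and that batch and the dose can be told apart only through replicate 3 at 100 µg. The call at 200 µg was also lost without untreated replicate 1 or 3 or any of the 3 libraries at 200 µg, where the change was -1.76 to -1.46 (limma adjusted p = 0.0522 to 0.0847). With groups set by the agent tag it was -0.83 (limma adjusted p = 0.494). The unweighted sum over intron-matched transcripts was 0 in all 3 libraries at 200 µg, against 37.5, 0 and 26.5 FPKM in untreated tumors (limma adjusted p = 0.223).

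**Figure D4:**
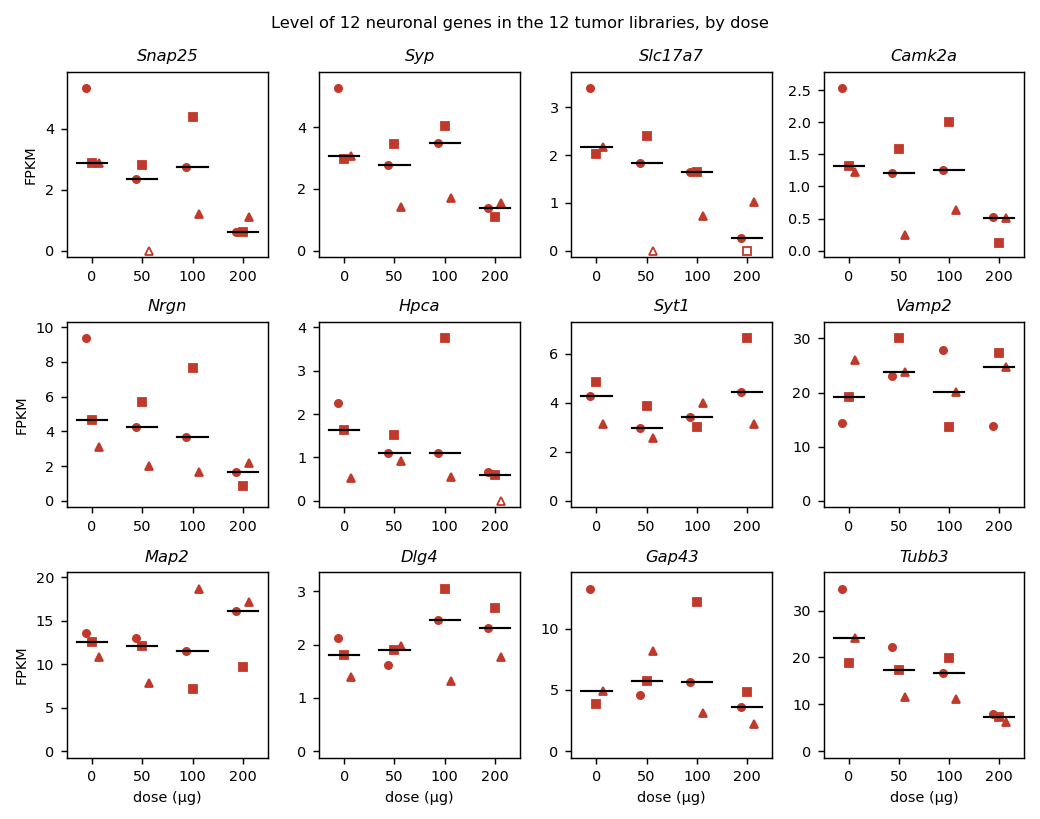
FPKM of 12 neuronal genes in the 12 tumor libraries by dose in µg, with symbols for replicates 1 to 3, open symbols for values listed at 0 and lines for group medians. Tubb3, Snap25, Syp, Camk2a, Slc17a7 and Nrgn have all 3 libraries at 200 µg below all 3 untreated libraries, and Syt1, Vamp2, Map2 and Dlg4 overlap.

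For several synaptic genes the 200 µg group lay below the untreated group without passing the adjusted threshold. Snap25 was listed at 2.37, 2.83 and 0 FPKM in the 50 µg group, 2.75, 4.41 and 1.19 in the 100 µg group and 0.618, 0.598 and 1.12 in the 200 µg group, beside the untreated values above. The log2 change at 200 µg was -1.38 (SE 0.49, limma adjusted p = 0.136), and the 200 µg and untreated groups did not overlap. Slc17a7 was listed at 1.84, 2.39 and 0 FPKM in the 50 µg group, 1.65, 1.65 and 0.721 in the 100 µg group and 0.269, 0 and 1.02 in the 200 µg group. Its log2 change at 200 µg was -1.35 (SE 0.44, limma adjusted p = 0.109). Without replicate 3 at 50 µg, where both genes were at 0, the changes of Snap25 and Slc17a7 were the same and the adjusted p was 0.0406 and 0.0316. With the batch term their changes were -0.34 and -0.72.

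Syp had 2.76, 3.46 and 1.40 FPKM in the 50 µg group, 3.48, 4.05 and 1.69 in the 100 µg group and 1.37, 1.11 and 1.56 in the 200 µg group (log2 change at 200 µg -0.997, SE 0.30, limma adjusted p = 0.0938, and 0.0476 without replicate 3 at 100 µg). With the batch term the Syp change was -0.18. Camk2a had 1.21, 1.59 and 0.248 FPKM in the 50 µg group, 1.25, 2.00 and 0.633 in the 100 µg group and 0.529, 0.114 and 0.508 in the 200 µg group (log2 change -0.94, SE 0.32, limma adjusted p = 0.126). In both genes replicate 3 at 50 µg and replicate 3 at 100 µg lay apart from the other 2 libraries of their group and near the 200 µg values. Nrgn had 4.25, 5.69 and 2.00 FPKM in the 50 µg group, 3.70, 7.68 and 1.67 in the 100 µg group and 1.64, 0.852 and 2.15 in the 200 µg group (log2 change -1.32, SE 0.48, limma adjusted p = 0.139).

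Other members did not follow this order. Syt1 had 2.98, 3.89 and 2.58 FPKM in the 50 µg group, 3.44, 3.01 and 4.01 in the 100 µg group and 4.42, 6.63 and 3.12 in the 200 µg group. The 200 µg group overlapped the untreated group (log2 change 0.14, SE 0.24, limma adjusted p = 0.765), and the sign of this change turned with the batch term. Vamp2 had 13.9, 27.3 and 24.7 FPKM at 200 µg, against 14.4, 19.3 and 26.0 FPKM in untreated tumors. Map2 had 16.1, 9.63 and 17.2 FPKM at 200 µg, against 13.6, 12.5 and 10.8 FPKM in untreated tumors. Dlg4 had 2.32, 2.68 and 1.76 FPKM at 200 µg, against 2.13, 1.80 and 1.39 FPKM in untreated tumors. These 3 genes, which kept more of their brain level than most, also overlapped between the groups.

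The other tested members lay between these patterns. Stx1a had 9.39, 18.5 and 8.78 FPKM in the 50 µg group, 22.2, 16.7 and 4.26 in the 100 µg group and 6.999, 5.64 and 4.26 in the 200 µg group, beside 9.42, 8.03 and 10.96 in untreated tumors. The 200 µg group was wholly below the untreated one, with a log2 change of -0.67 (SE 0.48, limma adjusted p = 0.425). Gap43 had 3.62, 4.84 and 2.22 FPKM in the 200 µg group, against 13.3, 3.81 and 4.91 FPKM in untreated tumors, where replicate 1 stood apart from the other 2 libraries. Syn1 was above all untreated libraries at 50 and at 100 µg, and Gria1 at 100 µg, where 3.32% of all tested genes met that rule at 50 µg and 7.51% at 100 µg. The transcripts shared between Syn1 and Araf were listed in every library at both doses, in replicates 1 and 3 at 200 µg, with 5.08 and 7.69 FPKM, and in healthy brain, with 79.9 to 108 FPKM.

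All 3 libraries at 200 µg lay below all 3 untreated libraries for 11 of the 36 genes, Snap25, Syp, Stx1a, Camk2a, Slc17a7, Gria2, Grin1, Shank1, Nrgn, Ddn and Tubb3. Of these, 8 were among the 17 tested, and 17.0% of all tested genes met the same rule. At 50 µg it was met by Snap25 alone, with 6.09% of all tested genes, and at 100 µg by Slc17a7 alone, with 7.07%. Gria2 was listed at 0 in all 3 libraries at 200 µg and above 0 in the 9 others. No member had all 3 libraries at 200 µg above the untreated ones, as 21.8% of all tested genes had. Of the genes with related functions above, 0 were called at 200 µg, where 2.83% of all genes were. Their median log2 change was -0.12 for vesicle release (8 tested), 0.02 for receptors (7) and -0.34 for cytoskeleton and identity (7). It was 0.29 for ion channels (2) and 0.81 for interneuron and peptide genes (1). Over whole lists the median residual level averaged 1.82, 0.509, 0.899, 0.180 and 0% in untreated tumors. At 200 µg it was 0.789, 0.0984, 0.279, 0 and 0%, in that order.

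Markers of other brain cells moved in part with these genes. The 12 oligodendrocyte genes had a median residual level of 8.75, 7.08 and 7.65% in untreated tumors, 7.95, 6.29 and 7.73% in the 50 µg group, 7.27, 7.30 and 3.65% in the 100 µg group and 3.62, 4.44 and 4.37% in the 200 µg group. Replicate 3 at 100 µg again lay with the 200 µg libraries. Their summed level was 90.7 to 91.3 FPKM at 200 µg, against 127 to 229 FPKM in untreated tumors. Of the 9 tested, 2 were called lower at 200 µg, where 0.798% of all genes were, Mag (log2 change -1.02, SE 0.23, limma adjusted p = 0.0422) and Cldn11 (-2.09, SE 0.45, limma adjusted p = 0.0402), named after their values were seen. Mbp, a structural protein of myelin, kept 4.06% of the brain level in untreated tumors, while Cnp, a myelin enzyme, kept 106%.

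The 11 astrocyte genes had median residual levels of 4.87 to 10.5% in untreated tumors, 4.03 to 8.64% at 50 µg, 5.54 to 13.6% at 100 µg and 3.89 to 6.46% at 200 µg, with all groups overlapping. Their summed level was 134 to 212 FPKM at 200 µg, against 114 to 180 FPKM in untreated tumors. Of the 6 tested, 1 was called higher, where 2.03% of all genes were. It was Slc1a3, a glutamate transporter of astrocytes, with 97.0, 68.5 and 61.1 FPKM at 200 µg, against 40.4, 27.9 and 40.4 FPKM in untreated tumors (log2 change 1.03, SE 0.22, limma adjusted p = 0.038).

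The 8 microglial genes had a median residual level of 58.5, 29.9 and 58.6% in untreated tumors, 33.3, 29.4 and 47.5% in the 50 µg group, 21.6, 26.6 and 44.5% in the 100 µg group and 35.5, 32.0 and 9.85% in the 200 µg group. Their summed level was 36.9 to 59.6 FPKM at 200 µg, against 118 to 220 FPKM in untreated tumors, without overlap. Of the 6 tested, 1 was called lower at 200 µg, where 0.798% of all genes were. It was Tmem119, a microglial membrane protein, with 4.03, 4.47 and 7.66 FPKM at 200 µg, against 52.8, 94.0 and 162 FPKM in untreated tumors (log2 change -3.92, SE 0.51, limma adjusted p = 0.00912).

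The 8 genes of oligodendrocyte precursors had a median of 185 to 282% of brain at 200 µg, against 313 to 528% in untreated tumors, and summed to 467 to 609 FPKM, against 911 to 1311 FPKM. By limma 0 of the 8 were called at 200 µg, where 2.83% of all genes were. The linear trend over dose called 1 of the 8 higher and 1 lower, where 5.10% and 2.43% of all genes were. An unadjusted p under 0.05 was found for 5 of the 8 and for 23.0% of all genes. Of 3 choroid plexus genes tested, 1 was called lower, where 0.798% of all genes were. It was Ttr, which carries thyroid hormone (limma adjusted p = 0.0364). Ttr was listed at 0 in all 3 libraries at 200 µg, against 49.6, 44.2 and 3.54 FPKM in untreated tumors. Its healthy brain level was uneven, at 565, 11.3 and 1259 FPKM. The other tested genes, Enpp2 and Aqp1, had positive log2 changes at 200 µg, 0.38 (SE 0.43) and 0.94 (SE 0.45), and were not called. Of the 7 endothelial genes tested by limma 0 were called and 2 had an unadjusted p under 0.05, a share near the 23.0% of all genes. Their groups overlapped, with medians of 57.6 to 112% of brain at 200 µg, against 94.4 to 155% in untreated tumors. The part of these cell types in the levels of the 36 genes was not tested.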

How the data were processed

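The tools named in the submitters' processing notes are STAR and Cufflinks, with the build mm10. Their versions, settings and annotation are not given in the sources used here, nor is the order of steps. The authors deposited 1 transcript table per library, holding exon coordinates and FPKM, from separate assemblies and with no gene names or counts. Transcripts were assigned to the 55450 genes of the GENCODE M21 basic set, strand was ignored, and unspliced transcripts under 200 bp were left out. A gene's value was the sum of FPKM times the share of its exonic length covered. The deposited FPKM values depend on the total of each library, and sparse genes can be split or missed, so a 0 can be a failed assembly. Depth was estimated from the confidence limits of transcripts of 2000 to 4000 bp that were the only form of their gene, and fragment numbers are estimates that cover counting error only.

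Tests used limma 3.58.1 in R 4.3.3 on log2(FPKM + 1) for genes with a mean of at least 1 FPKM, adjusted by Benjamini-Hochberg over all genes tested and called under 0.05. Untreated tumor was compared with healthy brain over 6 libraries. The dose comparisons (3 single doses, all doses together, and a linear trend) used the 12 tumor libraries. Simulated data of known change were used to check the fits. Percent of brain needed a brain mean of at least 1 FPKM and had no test. No 2 libraries were alike beyond a correlation of 0.943. The members and gene lists were chosen with earlier results of these data known. All 36 members are named, and of each other list at most the 2 genes highest in brain and the 2 with the highest percent of brain in untreated tumor, with exceptions stated. The alternatives tried were an unweighted FPKM sum over intron-matched transcripts, 0.1 FPKM added, no filter on low values, other scalings, short pieces kept, a replicate block, groups by agent tag, a batch term and leaving out libraries. All annotated exons, 0.1 FPKM added without a filter, and members above 100 FPKM in brain were tried after seeing the data.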

Additional observations from a re-analysis of the deposited data

How the results depend on the processing

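The count of 36 members lower in untreated tumor held at 36 in every alternative except the unweighted FPKM sum, with 34, and from 36 to 36 when single libraries were left out. Median-of-ratios scaling moved the median of all genes in that comparison to -0.08, against 0.14, and left the count at 36. At 200 µg the count of 1 member was 0 with the unweighted sum, 0 with the agent tag, 0 with the batch term and 4 without the 4 libraries whose tag differs, and ranged from 0 to 3 when single libraries were left out. For the trend the count of 1 was 0, 0 and 0 under the first 3 of these, 2 without the 4 libraries, 2 with quantile scaling, and 1 to 6 when single libraries were left out, with 6 without replicate 3 at 50 µg. For the other dose comparisons it was 0 throughout. With a replicate block the counts were 36, 0, 0, 1, 0 and 1, the same as without it. After group means were taken off, libraries with the same number in different tumor groups had correlations of -0.075 to 0.102. The highest between a tumor and a healthy brain library was 0.243, for replicate 3 at 100 µg. Libraries of different number were not compared, so pairing by number is not excluded.

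The Syt1 change at 200 µg reversed to -0.11 with the batch term and ranged from -0.092 to 0.35 when single libraries were left out. The mean over members in place of the median gave a residual level of 2.54% in untreated tumor, 2.52% at 50 µg, 2.61% at 100 µg and 1.85% at 200 µg, against group means of the medians of 0.495, 0.391, 0.646 and 0.101%. Over the 18 members above 100 FPKM in brain it was 0.201% at 200 µg. Leaving out single libraries gave 0.350 to 0.575% in untreated tumor, 0.324 to 0.442% at 50 µg, 0.425 to 0.858% at 100 µg and 0.0746 to 0.145% at 200 µg. The causes were not tested. Groups of 3, and the 125 to 233 estimated fragments behind Snap25 in untreated tumors, limit the precision, and members listed at 0 may lie below what the assembly lists.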

Other observations

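Of 9 genes of immature neurons and progenitors tested in untreated tumor against healthy brain, 4 rose and 4 fell, with a median log2 fold change of 0.09. Of all genes, 32.7% rose and 28.0% fell. Nes, an intermediate filament of progenitors, had 34.2, 36.5 and 32.3 FPKM in untreated tumors, against 2.86, 2.47 and 2.40 FPKM in healthy brain. Tubb2b, a beta tubulin of developing neurons, had 257, 264 and 199 FPKM in untreated tumors, against 57.0, 77.2 and 60.4 FPKM in healthy brain. Stmn1, a stathmin of dividing and immature cells, fell to 92.9, 67.1 and 89.9 FPKM in untreated tumors, against 422, 237 and 135 FPKM in healthy brain.

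Region markers differed between the healthy brain libraries. The 7 striatal genes summed to between 102 and 702 FPKM in healthy brain, and all 7 were lower in untreated tumor, with sums of 19.0 to 26.6 FPKM. Ppp1r1b, a phosphatase inhibitor of striatal neurons, had 15.2, 19.1 and 22.9 FPKM in untreated tumors, against 171, 394 and 46.9 FPKM in healthy brain. Of 6 cortical and hippocampal genes 5 fell, and Neurod6 and Neurod2, transcription factors of excitatory cortical neurons, were at 0 in all 3 untreated tumors, while Rorb, with 7.10, 5.38 and 4.49 FPKM in untreated tumors and 6.74, 4.64 and 6.97 FPKM in healthy brain, did not pass (adjusted p = 0.726 by limma).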
